A study of Mus musculus with 29 samples.

Results

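The genes described here are 9 secreted growth factors, Igf1, Bdnf, Gdnf, Fgf1, Fgf2, Hgf, Pdgfa, Pdgfb and Csf1, out of 25746 genes counted by RNA sequencing in mouse cortex 21 days after a photothrombotic stroke (21 dpi). They were picked by name for their known neurotrophic or repair roles and located by Ensembl gene ID. They and the related gene lists were chosen with earlier results of these data known. Counts of called genes set beside the shares of all genes are therefore a description. All 9 were counted in all 29 samples and passed the filter on low counts. In a photothrombotic stroke, light activates a dye in the blood and clots the vessels of the illuminated cortex, here the right sensorimotor cortex, and the RNA came from tissue around the stroke.

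WT mice were C57BL/6J. WT-Tacr mice were C57BL/6J mice that received tacrolimus, an inhibitor of calcineurin, from a pump implanted either on the day of stroke (acute) or a week later (delayed). Rag2-/- mice carry a germline deletion that leaves no mature T or B cells, and NSG mice (NOD background with the scid mutation of Prkdc and a disrupted Il2rg) lack NK cells too. The mice were of both sexes and 3 months of age. The stroked groups held 4 WT, 3 acute WT-Tacr, 5 delayed WT-Tacr, 3 Rag2-/- and 3 NSG samples, and the non-stroked groups held 4 WT, 3 Rag2-/- and 4 NSG samples. There was no non-stroked WT-Tacr group, so both WT-Tacr groups and the untreated WT group were compared with the same 4 non-stroked WT samples. In the WT-Tacr comparisons with non-stroked mice, stroke and tacrolimus with its pump therefore cannot be told apart. NSG mice differ from the other groups in strain background as well as in immune cells, and these cannot be told apart here. The study compared these models to ask how suppression of the immune system changes the tissue around a stroke.

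Total counts ranged from 17789044 to 43403413 per sample. Sample titles carry 1 of 2 prefixes, and the 9 samples titled TF (median total 23155303) comprised all 5 delayed WT-Tacr, 2 of 3 acute WT-Tacr and 2 of 4 stroked WT samples, whereas the 20 samples titled Imm2 (median 37223696) included every non-stroked sample. The summed level of 6 choroid plexus genes spanned 4.79 to 1585 CPM (counts scaled to a common library total), and 13 samples lay above 100 CPM. Ddx3y, a gene of the Y chromosome, exceeded 1 CPM in 4 of 4 non-stroked WT, 4 of 4 non-stroked NSG, 2 of 4 stroked WT, 1 of 3 stroked NSG and 0 of 5 delayed WT-Tacr samples, so sex was not balanced between the groups compared. The transcript B230118H07Rik, which lies beside Rag2, had 0 to 4 counts in Rag2-/- samples and 274 to 1241 elsewhere. Rag2 itself had 0 to 2 counts in every group, which checks little. Reads were still counted in NSG mice for both genes altered in that strain, Il2rg (22 to 36 counts in non-stroked and 31 to 37 in stroked NSG samples, against 27 to 32 in non-stroked and 58 to 137 in stroked WT samples) and Prkdc (660 to 1286 counts over the NSG samples, against 1047 to 1109 in non-stroked WT samples). These counts do not check the NSG label. The titles of 2 acute WT-Tacr samples (replicates 1 and 2) carry another mouse number than the names of their count tables, and the assignment in the sample records was used.

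Growth factors act outside the cell that makes them. Insulin-like growth factor 1, the fibroblast growth factors, hepatocyte growth factor, the platelet-derived growth factors and brain-derived neurotrophic factor each bind receptor tyrosine kinases, and glial cell line-derived neurotrophic factor binds a co-receptor that joins the kinase Ret. Colony-stimulating factor 1 acts through the kinase Csf1r, on which microglia and macrophages depend. In the brain, Bdnf is made mainly by neurons and follows their activity, Igf1 is made by some neurons, microglia and vascular or meningeal cells, and Fgf1 and Fgf2 are made by neurons and glia.

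Csf1 and Bdnf are shown by their promoters, because Csf1 rose after stroke without overlap in each of the 3 strains and Bdnf was the member with fitted changes of opposite sign in WT and NSG mice. In each sequence, which is from RefSeq on GRCm38.p6 and ends at the base before the annotated start, capitals mark the only match to the motifs searched. The Csf1 window is chr3:107760470-107760719 on the minus strand, and its capitals match the NF-kB motif on the strand opposite to the one printed, 154 to 145 bases before the start. The Bdnf window is chr2:109674450-109674699 on the plus strand, upstream of the first of the annotated starts, and its capitals match the STAT motif (TTCNNNGAA), 122 to 114 bases before the start. Windows of the other Bdnf starts are not printed. The window that begins at base 109676782 held an AP-1 match (motif given below), and the rest held no match. The shares given below are per window, not per gene.
Csf1: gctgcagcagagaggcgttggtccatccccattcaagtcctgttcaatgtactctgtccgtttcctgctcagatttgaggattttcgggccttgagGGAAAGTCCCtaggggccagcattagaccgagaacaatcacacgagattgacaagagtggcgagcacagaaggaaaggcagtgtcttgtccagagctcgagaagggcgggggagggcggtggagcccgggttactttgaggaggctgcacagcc
Bdnf: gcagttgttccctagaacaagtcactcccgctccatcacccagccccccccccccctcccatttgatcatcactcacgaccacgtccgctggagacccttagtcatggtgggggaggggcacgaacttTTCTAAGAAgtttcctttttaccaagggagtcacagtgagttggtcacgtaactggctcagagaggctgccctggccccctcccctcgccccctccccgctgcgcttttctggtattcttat
Of 32851 promoter windows of the same length, 0.356% held the NF-kB motif and 7.02% the STAT motif. The other motifs searched on both strands were TGACGTCA (CRE, in 1.55% of windows), TGANTCA (AP-1, 6.75%), GAGGAAGT (PU.1, 2.44%), GCGNGGGCG (EGR, 4.7%) and CACGTG (E-box, 6.02%). A match is a description of the letters and not a binding site. RefSeq windows were found for 7 of the 9 genes.

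Levels between genes are compared as CPM per kilobase of exon. On that scale the order in non-stroked WT cortex was Fgf1 (13.5), Pdgfa (9.06), Pdgfb (6.16), Bdnf (5.54), Csf1 (4.66), Igf1 (1.02), Fgf2 (1.01), Hgf (0.826) and Gdnf (0.0991). Fgf1, an acidic fibroblast growth factor released without a signal peptide, thus gave the highest level, and Gdnf, a survival factor for dopamine and motor neurons, had only 9 to 18 counts per sample. The SD between the 4 samples on this scale was 0.201 for Fgf1, 0.945 for Pdgfb, 1.29 for Bdnf and 0.296 for Csf1, so Bdnf was not separated beyond its spread from either of its neighbours in this order, Pdgfb and Csf1, nor were Igf1 (SD 0.0789) and Fgf2 (SD 0.0821) separated. Reads of Fgf2 and Fgf1 could be shared with genes on the opposite strand, Nudt6 (46 to 147 counts) and Arhgap26 (63 to 352 counts), if strand was not used in counting, and Hgf overlaps a pair of low transcripts on its own strand (at most 13 counts).

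After stroke in WT mice, Igf1, Fgf2 and Csf1 rose and Bdnf fell, so that 4 of 9 growth factors were called at an adjusted p below 0.05, where 26.9% of 17031 genes were called (15.2% higher and 11.6% lower). The same 4 were the members whose stroked and non-stroked WT samples did not overlap, against 29.8% of all genes. In delayed WT-Tacr mice 4 rose and 2 fell, near the 55.2% of all genes called in that comparison (27.6% higher, 27.6% lower), and the same 6 did not overlap (54% of genes). In Rag2-/- mice 3 of 9 rose, where 6.71% of genes were called higher and 1.53% lower (8.23% in all), and 5 of 9 did not overlap (35.7% of genes). In NSG mice 4 of 9 rose, where 13% of genes were called higher and 8.89% lower (21.9% in all), and 2 of 9 did not overlap (25% of genes). Fitted on the NSG samples alone, none of these 4 passed the edgeR test (adjusted p 0.060 to 0.19). In acute WT-Tacr mice edgeR called 0 of 9 (8.54% of genes, 6.18% higher and 2.36% lower), and DESeq2 called 0 as well. There, 2 of 9 had an unadjusted p below 0.05, beside 4701 of all 17031 genes, and 2 of 9 did not overlap (19.6% of genes). The median log2 fold change over the 9 genes was 0.12 in WT, 0.01 in acute WT-Tacr, 0.22 in delayed WT-Tacr mice, 0.13 in NSG and 0.29 in Rag2-/- mice, where the median of all genes lay between -0.00330 and 0.0299. Calls need no minimum fold change. With the samples titled Imm2 alone, the changes in WT mice were 1.25 for Igf1, 0.57 for Csf1 and -0.89 for Bdnf, each still called, and 0.61 for Fgf2, which was not. All delayed WT-Tacr samples were titled TF and all non-stroked ones Imm2, and with the prefix as a covariate, estimated from the stroked WT and acute WT-Tacr groups that hold both prefixes, Csf1 (0.73) and Bdnf (-1.32) kept their call in delayed WT-Tacr mice while Igf1 (1.395), Fgf2 (0.71), Gdnf (1.33) and Fgf1 lost it. Without the 13 samples of high choroid plexus level, 2 stroked and 2 non-stroked WT samples were left, and some other groups kept 1. The WT changes in that fit were 1.30 for Igf1, 0.56 for Csf1, 0.69 for Fgf2 and -0.58 for Bdnf. With so few samples its calls are not set out. In bulk tissue, fewer cells of a type and less RNA per cell cannot be told apart.

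**Figure D1:**
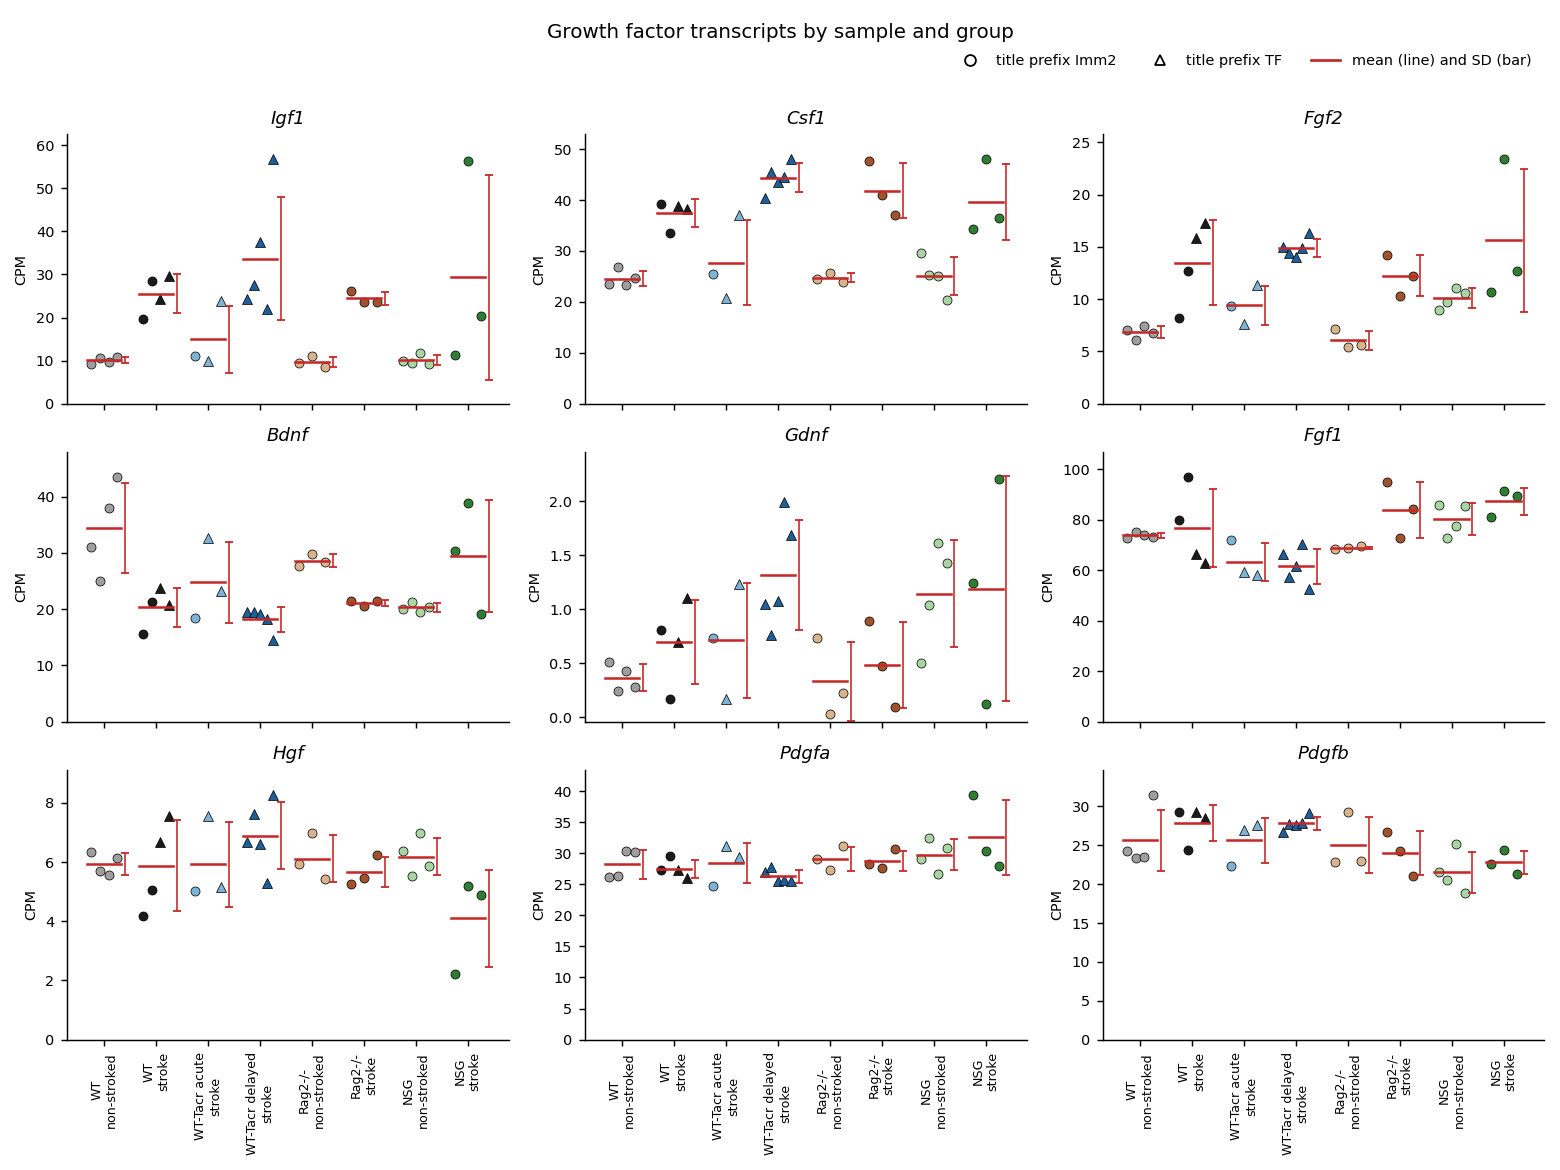
CPM (y axis, linear) of each growth factor in every sample, by group (x axis), with circles for samples titled Imm2, triangles for those titled TF, and red lines and bars for mean and SD. Igf1, Csf1 and Fgf2 lay higher in most stroked samples than in any non-stroked sample of the same strain, whereas Pdgfa and Pdgfb stayed between 18.8 and 39.5 CPM throughout.

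**Figure D2:**
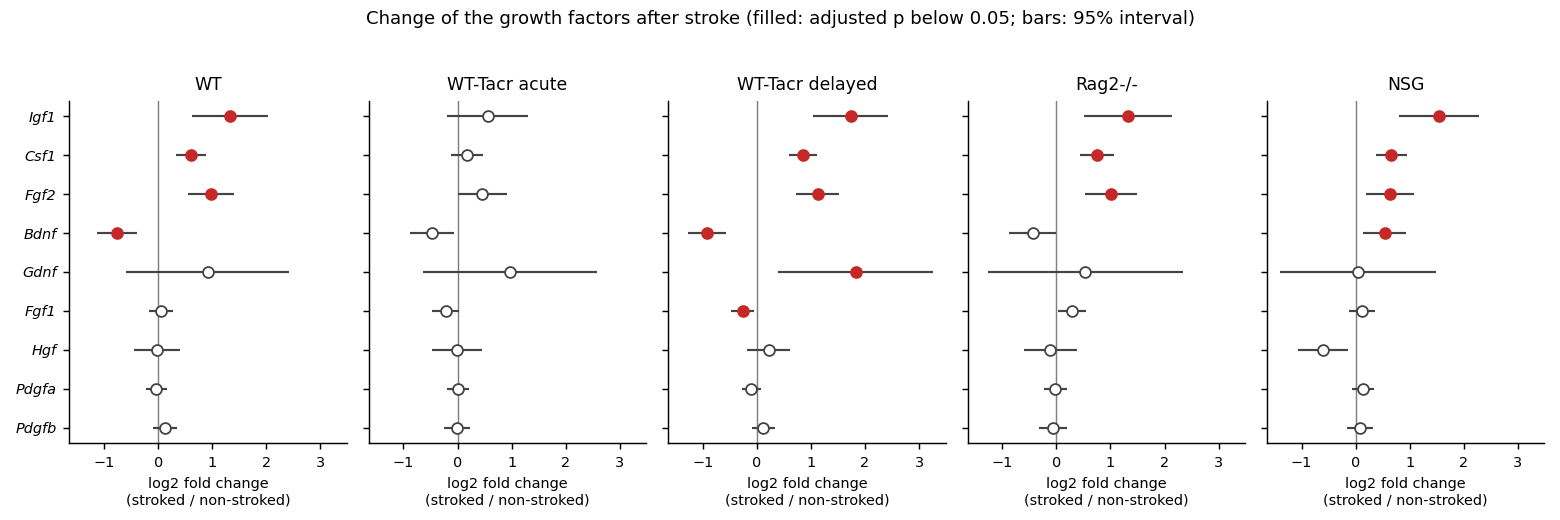
Log2 fold change of each growth factor after stroke in the 5 stroked groups against untreated non-stroked mice of the same strain, with 95% confidence intervals. Igf1 ranged from 0.56 in acute WT-Tacr to 1.73 in delayed WT-Tacr mice, and Bdnf was negative in 4 groups and positive (0.54) in NSG mice.

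Igf1 (ENSMUSG00000020053; GENCODE M21 on GRCm38, chromosome 10, 87858265 to 87937042, plus strand) encodes insulin-like growth factor 1, which supports survival of neurons and growth of oligodendrocytes. The 4 non-stroked WT samples had 9.25, 10.6, 9.70 and 10.9 CPM, and the 4 stroked WT samples had 19.6, 28.5, 24.2 and 29.6 CPM. Every stroked WT sample was thus above every non-stroked one, and Igf1 rose 2.51-fold (log2 fold change 1.33 ± 0.34 SE, 95% interval 0.63 to 2.03, adjusted p = 0.0061). The 3 stroked Rag2-/- samples were close to one another at 26.2, 23.5 and 23.6 CPM, against 9.54, 11 and 8.61 CPM in non-stroked Rag2-/- mice, and the log2 fold change was again 1.33 ± 0.40 (adjusted p = 0.036). That Rag2-/- call was lost when any 1 of the 6 samples was left out (adjusted p 0.058 to 0.13), at log2 fold changes of 1.24 to 1.43. Delayed WT-Tacr mice had 24.3, 27.7, 37.6, 21.9 and 56.8 CPM and the largest of the 5 fitted changes, 1.73 ± 0.33 (3.32-fold, adjusted p = 0.00014).

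Stroked NSG and acute WT-Tacr mice each included samples within or near the non-stroked range of Igf1. The stroked NSG samples had 11.2, 56.3 and 20.4 CPM, the lowest of which lay within the non-stroked NSG range of 9.16 to 11.7 CPM. The fitted NSG change was 1.54 ± 0.36 (adjusted p = 0.0040), but without the sample at 56.3 CPM it was 0.64 (adjusted p = 0.13). In acute WT-Tacr mice 2 samples (11.05 and 9.82 CPM in replicates 1 and 2, whose titles and count tables differ in mouse number) were near the non-stroked WT range and the third had 23.9 CPM. The acute change was 0.56 ± 0.37 (adjusted p = 0.33). Over all groups, 15 of 18 stroked samples exceeded the highest of the 11 non-stroked samples (11.7 CPM), and the 3 that did not were the 2 acute WT-Tacr and the 1 NSG sample just named.

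The 6 marker genes of fibroblasts and meninges (Col1a1, Col1a2, Col3a1, Dcn, Lum and Pdgfra) moved with Igf1 from sample to sample. Their summed level was 83.6 to 95.7 CPM in non-stroked WT, 89.5 to 108 in non-stroked Rag2-/- and 104 to 188 in non-stroked NSG mice, and 319 to 686 in stroked WT, 352 to 374 in stroked Rag2-/- and 397 to 1597 in delayed WT-Tacr mice. The stroked NSG samples had 223, 1331 and 359 CPM in the order given for Igf1, and the acute WT-Tacr samples had 116, 84.8 and 429 CPM. The samples with the highest Igf1, 1 delayed WT-Tacr and 1 NSG, were therefore those with the highest fibroblast and meningeal sums. Of the 6 markers, 5 rose in WT, delayed WT-Tacr, Rag2-/- and NSG mice, where 15.2%, 27.6%, 6.71% and 13% of all genes were called higher. In acute WT-Tacr mice 2 rose (6.18% of all genes), and no defining marker was at 0 in the group means. Pdgfra, which also marks oligodendrocyte precursors, made up much of the non-stroked sums, at means of 54.9 CPM in WT and 76.4 CPM in NSG mice. It was called higher in non-stroked NSG than in non-stroked WT mice (0.48 ± 0.11, adjusted p = 0.0066). The part of fibroblasts and meningeal cells in the Igf1 values was not tested, and Igf1 followed other marker sums too, as given with Csf1.

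Csf1 (ENSMUSG00000014599; chromosome 3, 107741048 to 107760469, minus strand) encodes the growth factor for microglia and macrophages. Non-stroked WT samples had 23.5, 26.8, 23.4 and 24.7 CPM, and stroked WT samples had 39.3, 33.5, 38.9 and 38.2 CPM. The groups did not overlap, and Csf1 rose by 0.61 ± 0.13 on the log2 scale (1.52-fold, adjusted p = 0.0019). In Rag2-/- mice the stroked samples had 47.6, 40.9 and 37.0 CPM against 24.6, 25.7 and 23.9, a rise of 0.76 ± 0.15 (adjusted p = 0.0029). In NSG mice they had 34.2, 48.1 and 36.5 CPM against 20.3 to 29.6, a rise of 0.66 ± 0.14 (adjusted p = 0.0021). Csf1 was thus the member whose stroked and non-stroked samples stayed apart in each of the 3 strains while passing the test in each.

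The 5 delayed WT-Tacr samples lay close together in Csf1, at 40.4, 45.5, 43.5, 44.4 and 48.1 CPM, and rose by 0.85 ± 0.13 (1.80-fold, adjusted p = 9.6e-06). All 5 lay above all 4 untreated stroked WT samples, as was so for 4.23% of genes, and the direct comparison did not pass the test (0.25 ± 0.13, adjusted p = 0.27). In acute WT-Tacr mice the values were 25.4, 20.8 and 37.0 CPM, so that 2 samples were within the non-stroked range and 1 within the stroked WT range. Of all 18 stroked samples, only those 2 failed to exceed the highest non-stroked sample (29.6 CPM). The summed level of 8 phagocyte activation genes (Cd68, Trem2, Tyrobp, Lgals3, Gpnmb, Spp1, Itgax and Apoe) split the acute samples likewise, at 1443, 1032 and 4244 CPM, against 981 to 1257 in non-stroked WT and 3297 to 4453 in stroked WT mice. It was 3990 to 5937 in delayed WT-Tacr, 3235 to 4354 in stroked Rag2-/- and 3576 to 5441 in stroked NSG mice, against 1116 to 1244 and 1452 to 1564 in the non-stroked Rag2-/- and NSG groups. All 8 of these genes rose in each stroke comparison, where 6.18% (acute WT-Tacr) to 27.6% (delayed WT-Tacr) of all genes were called higher. The part of these 8 genes in the Csf1 values was not tested. By Pearson correlation of log2 values over the 29 samples, Csf1 followed this phagocyte sum (r = 0.93) and the fibroblast and meningeal sum (0.92). Igf1 followed both as well (0.89 and 0.97), as did Fgf2 (0.85 and 0.89). Neither sum was thus particular to 1 growth factor.

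Fgf2 (ENSMUSG00000037225; chromosome 3, 37348346 to 37410108, plus strand) encodes basic fibroblast growth factor, which is mitogenic for astrocytes, vessel cells and neural progenitors. It had 7.03, 6.12, 7.45 and 6.79 CPM in non-stroked WT and 8.20, 12.7, 15.8 and 17.3 CPM in stroked WT samples, a rise of 0.98 ± 0.20 without overlap (1.97-fold, adjusted p = 0.0012). Both higher stroked WT samples were titled TF, and with the Imm2 samples alone the change was 0.61 (adjusted p = 0.14). Rag2-/- mice had 14.3, 10.3 and 12.2 CPM after stroke against 7.11, 5.47 and 5.62 CPM, a rise of 1.01 ± 0.24 (adjusted p = 0.0077). The 5 delayed WT-Tacr samples lay between 14.0 and 16.3 CPM and rose by 1.12 ± 0.20 (adjusted p = 5.0e-05).

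In NSG mice Fgf2 was already higher without stroke, at 8.92, 9.75, 11.1 and 10.5 CPM, than in any non-stroked WT or Rag2-/- sample. That difference was called against Rag2-/- mice (0.73 ± 0.22, adjusted p = 0.049, where 6.33% of genes were called, 3.07% higher) and not against WT mice (0.56 ± 0.20, adjusted p = 0.085). Groups without overlap were found for 24.3% of genes against Rag2-/- and for 21.8% against WT mice. Leaving out any 1 of the 7 samples ended the call against Rag2-/- mice. The stroked NSG samples had 10.7, 23.4 and 12.7 CPM and rose by 0.63 ± 0.21 (adjusted p = 0.035), but by 0.21 (adjusted p = 0.46) without the sample at 23.4 CPM, the same mouse that had the highest NSG Igf1. In acute WT-Tacr mice Fgf2 had 9.32, 7.62 and 11.3 CPM, each above all non-stroked WT samples, with a change of 0.46 ± 0.22 that did not pass the test (adjusted p = 0.17).

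Bdnf (ENSMUSG00000048482; chromosome 2, 109674700 to 109727007, plus strand) encodes the ligand of Ntrk2 (TrkB), which supports synapses and plasticity. Non-stroked WT samples had 31.1, 25.1, 38.02 and 43.5 CPM, and stroked WT samples had 15.6, 21.3, 23.8 and 20.7 CPM. The groups did not overlap, and Bdnf fell by 0.76 ± 0.18 on the log2 scale (adjusted p = 0.0036). Delayed WT-Tacr mice had 19.5, 19.6, 19.1, 18.2 and 14.4 CPM, a fall of 0.92 ± 0.17 (adjusted p = 9.8e-05). In Rag2-/- mice the stroked samples (21.4, 20.5 and 21.4 CPM) were all below the non-stroked ones (27.7, 29.8 and 28.3 CPM), with a log2 change of -0.44 ± 0.21 that missed the threshold (adjusted p = 0.22). In acute WT-Tacr mice the values were 18.5, 32.7 and 23.2 CPM and the change was -0.48 ± 0.20 (adjusted p = 0.12). Without the acute sample at 32.7 CPM it was -0.75 (adjusted p = 0.040).

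NSG mice had the opposite sign for Bdnf. Without stroke, Bdnf in NSG mice was tightly grouped at 19.97, 21.3, 19.5 and 20.4 CPM, below every non-stroked WT sample, and lower by a log2 difference of -0.76 ± 0.18 (adjusted p = 0.0062, the only 1 of 9 growth factors called where 9.76% of genes were, 4.92% lower). After stroke the NSG samples had 30.3, 38.9 and 19.1 CPM, which is 2 samples above and 1 below all non-stroked NSG samples. The 2 above carry f in their mouse names (1f_1 and 1f_2) and the 1 below carries m (1m_3). Ddx3y exceeded 1 CPM in 1 of these 3 samples and in 4 of 4 non-stroked NSG samples, so sex was not balanced in this comparison. The part of sex in the Bdnf change was not tested beyond the Ddx3y covariate given next. The fitted change was 0.54 ± 0.19 (adjusted p = 0.047), and it was 0.52 (adjusted p = 0.054) with RLE normalization, 0.28 (adjusted p = 0.33) without the sample at 38.9 CPM and 0.26 (adjusted p = 0.37) with Ddx3y as a covariate. The difference between the stroke response of NSG and WT mice was 1.30 ± 0.26 (95% interval 0.75 to 1.84) and just missed the threshold (adjusted p = 0.060, where 0.0294% of genes were called). DESeq2 gave 1.29 with an adjusted p of 0.0033 for the same difference. The difference from the Rag2-/- response was 0.97 ± 0.28 (adjusted p = 0.45).

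The summed level of 8 neuronal genes (Rbfox3, Snap25, Syt1, Tubb3, Slc17a7, Gad1, Gad2 and Nefl) was 7644 to 8438 CPM in non-stroked WT and 5228 to 7057 CPM in stroked WT mice, with 4 of 8 lower (11.6% of all genes). It was 4784 to 5709 CPM in delayed WT-Tacr mice, with 6 of 8 lower (27.6% of all genes), 5541 to 7033 in stroked Rag2-/- mice against 7654 to 8122, and 5731 to 6507 in stroked NSG against 6449 to 8002 CPM in non-stroked NSG mice. The acute WT-Tacr samples had 8360, 7833 and 6046 CPM in the order given for Bdnf. In stroked NSG mice 1 of 8 neuronal genes was called lower (Syt1), where 8.89% of all genes were. In Rag2-/- and acute WT-Tacr mice edgeR called 0 of 8 (8.23% and 8.54% of all genes in either direction). There, 3 and 1 of 8 had an unadjusted p below 0.05, beside 3691 and 4701 of all 17031 genes. The part of neuron number in the Bdnf values was not tested. Nor was that of tissue below the cortex, for which sums of striatal genes are given with Gdnf.

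**Figure D3:**
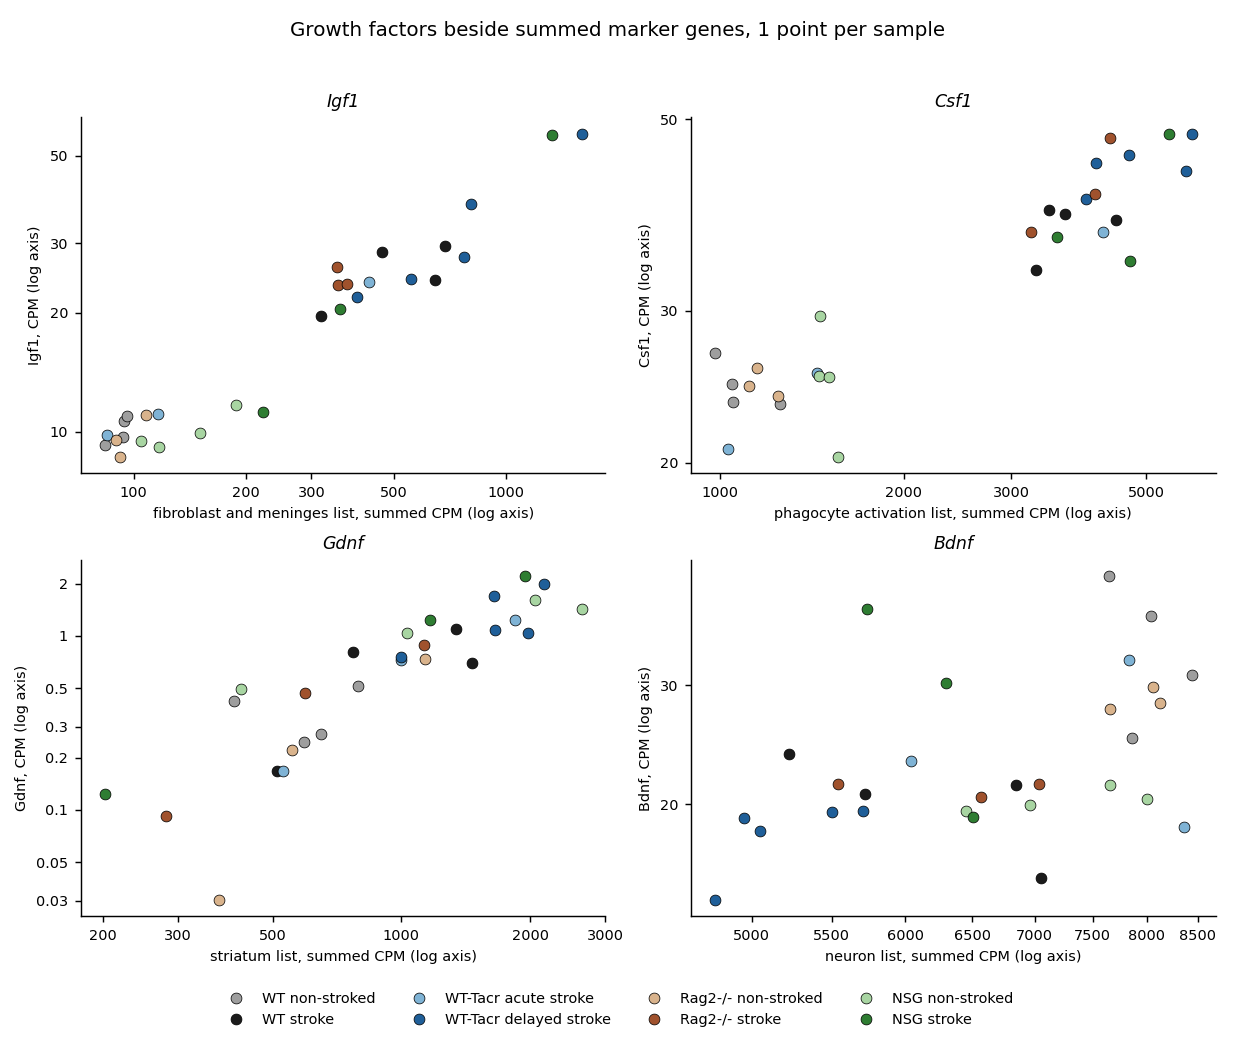
Growth factor CPM (y axis) against summed CPM of a marker list (x axis), both log axes, 1 point per sample coloured by group. Igf1 was highest in the 2 samples with the highest fibroblast and meningeal sums (1331 and 1597 CPM), Csf1 separated with the phagocyte activation sum, Gdnf was lowest where striatal genes were low, and Bdnf spread from 14.4 to 43.5 CPM over neuronal sums of 4784 to 8438 CPM.

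Gdnf (ENSMUSG00000022144; chromosome 15, 7810846 to 7837575, plus strand) was measured from 1 to 72 counts per sample. Delayed WT-Tacr mice had 1.05, 0.756, 1.08, 1.99 and 1.69 CPM, all above the 4 non-stroked WT samples (0.512, 0.245, 0.424 and 0.275 CPM), and Gdnf rose by 1.82 ± 0.69 (adjusted p = 0.029). The call was lost in 4 of 9 fits that left out 1 sample. Stroked WT samples had 0.808, 0.167, 0.695 and 1.0995 CPM, which overlapped the non-stroked samples (0.92 ± 0.73, adjusted p = 0.37). Within a group Gdnf varied several-fold, from 0.124 to 2.20 CPM in stroked NSG and from 0.0304 to 0.736 CPM in non-stroked Rag2-/- mice. The summed level of 7 striatal genes (Drd1, Drd2, Adora2a, Ppp1r1b, Rgs9, Pde10a and Penk, a list written after the values were seen) spanned 406 to 792 CPM in non-stroked WT, 511 to 1459 in stroked WT, 529 to 1843 in acute and 995 to 2158 in delayed WT-Tacr, 375 to 1135 in non-stroked and 281 to 1130.5 in stroked Rag2-/-, 422 to 2639.8 in non-stroked and 202 to 1942 in stroked NSG mice. The stroked NSG sample with the lowest Gdnf also had the lowest striatal sum of the 29 samples (202 CPM), and the share of tissue below the cortex in each sample was not tested as a part of the Gdnf result. In the order given for Bdnf, the stroked NSG samples had striatal sums of 1164, 202 and 1942 CPM. Of these, the sample highest in Bdnf was the lowest in striatal genes. Non-stroked NSG mice, at 422 to 2639.8 CPM of this sum, were tightly grouped in Bdnf. By Pearson correlation of log2 values over all 29 samples, the striatal sum had r = 0.89 with Gdnf and -0.54 with Bdnf. The neuronal sum had r = 0.44 with Bdnf.

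Fgf1 (ENSMUSG00000036585) showed no common direction. The non-stroked WT samples lay together at 72.8, 75.3, 74.0 and 73.3 CPM, and the stroked WT samples on both sides of them at 79.8, 97.1, 66.6 and 63.0 CPM, with both samples titled Imm2 above and both titled TF below. Delayed WT-Tacr mice, all titled TF, had 66.3, 57.2, 61.6, 70.2 and 52.6 CPM, and Fgf1 fell by 0.26 ± 0.10 (adjusted p = 0.037). With the title prefix as a covariate the same change was 0.13 (adjusted p = 0.57), so its direction did not hold. Stroked Rag2-/- samples (94.8, 72.7 and 84.5 CPM) were all above the non-stroked ones (68.5, 68.6 and 69.5 CPM) at 0.29 ± 0.13 (adjusted p = 0.18).

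Hgf (ENSMUSG00000028864; chromosome 5, 16553495 to 16620152, plus strand), the ligand of Met, had means between 5.66 and 6.90 CPM in 7 groups and 4.09 ± 1.65 CPM (SD, n = 3) in stroked NSG mice. The 3 stroked NSG samples (2.20, 5.19 and 4.89 CPM) were all below the 4 non-stroked NSG samples (5.53 to 6.97 CPM). That change was -0.60 ± 0.23 (adjusted p = 0.058), and without the sample of highest Igf1 it was -0.82 (adjusted p = 0.022). In the other 4 stroke comparisons Hgf changed by -0.11 to 0.22 on the log2 scale and was not called.

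Pdgfa (ENSMUSG00000025856; chromosome 5, 138976014 to 138997370, minus strand) and Pdgfb (ENSMUSG00000000489; chromosome 15, 79995874 to 80014977, minus strand) encode the chains of platelet-derived growth factor, which act on oligodendrocyte precursors and on pericytes. Neither was called in any of the 16 comparisons. Pdgfa ranged from 24.8 to 39.5 CPM and Pdgfb from 18.8 to 31.5 CPM over all 29 samples. In WT mice the 95% interval of the stroke change was -0.23 to 0.15 for Pdgfa and -0.10 to 0.34 for Pdgfb, so a rise of the size seen for Csf1 lay outside it for both.

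Among stroked mice, no growth factor was called between acute WT-Tacr and WT, delayed WT-Tacr and WT, Rag2-/- and WT, or NSG and WT mice by edgeR or DESeq2, where 0%, 0%, 0.00587% and 12.9% of genes were called. At an unadjusted p below 0.05 there were 4, 1, 0 and 4 of 9, beside 2168, 3455, 1196 and 4921 of all 17031 genes. Between the WT-Tacr groups 3 of 9 were called (20.3% of genes, 10.4% higher), and each was higher with delayed treatment: Igf1 by 1.17 ± 0.36 (adjusted p = 0.026), Fgf2 by 0.66 ± 0.21 (adjusted p = 0.031) and Csf1 by 0.68 ± 0.14 (adjusted p = 0.010). Fgf2 and Csf1 did not overlap between these groups, as was so for 17.8% of genes. The comparison of acute WT-Tacr mice with untreated stroke depended on the acute sample at 23.9 CPM of Igf1. Without it, acute WT-Tacr mice were lower than stroked WT mice in Csf1 (-0.68, adjusted p = 0.0030) and in Igf1 (-1.27, adjusted p = 0.050). That fit rests on the other 2 acute samples, replicates 1 and 2, whose titles and count tables differ in mouse number. These 2 samples had fibroblast, phagocyte and neuronal sums at or near the non-stroked ranges, and the part of these sums in the comparison was not tested.

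Between non-stroked Rag2-/- and WT mice 0 of 9 were called by edgeR and DESeq2 (0.00587% of genes were called). At an unadjusted p below 0.05 there were 0 of 9, beside 349 of all 17031 genes. The stroke responses of Rag2-/- and WT mice differed in 0 of 9 (0% of genes). There, 0 of the 9 and 713 of all 17031 genes had an unadjusted p below 0.05. Intervals of this difference were -1.08 to 1.08 for Igf1, -0.60 to 0.67 for Fgf2 and -0.27 to 0.57 for Csf1. The stroke responses of NSG and Rag2-/- mice differed in 0 of 9 (0% of genes). Of the 9, Bdnf alone had an unadjusted p below 0.05, beside 1598 of all 17031 genes.

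Of 16 receptors of these growth factors, all tested, 3 rose and 1 fell in WT, 2 rose and 1 fell in acute WT-Tacr, 6 rose and 4 fell in delayed WT-Tacr, 2 rose and 1 fell in Rag2-/-, and 3 rose and 1 fell in NSG mice. In WT, NSG and delayed WT-Tacr mice these counts lay near the shares of all genes called (26.9%, 21.9% and 55.2%), and in Rag2-/- and acute WT-Tacr mice 3 of 16 stood beside 8.23% and 8.54% of all genes. The median log2 fold change was -0.00884 in WT mice, against -0.000445 over all genes. Csf1r, the receptor of Csf1 on microglia and macrophages, was the only receptor called in all 5: its mean was 81.7 ± 4.98 CPM (SD, n = 4) in non-stroked and 169 ± 25.2 CPM (n = 4) in stroked WT mice (log2 fold change 1.05 ± 0.12, adjusted p = 6.8e-06). It reached 126 ± 36.7 CPM (n = 3) in acute WT-Tacr (0.63 ± 0.13, adjusted p = 0.0067, and 0.35 with an adjusted p of 0.17 without replicate 3), 203 ± 13.7 (n = 5) in delayed WT-Tacr, 142 ± 14.8 (n = 3) in NSG and 144 ± 18.01 CPM (n = 3) in Rag2-/- mice. Ligand and receptor of this pair were thus both higher after stroke in 4 groups, while in acute WT-Tacr mice the receptor alone was called.

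The receptors of the falling or variable ligands behaved otherwise. Ntrk2, the Bdnf receptor, was called in no stroke comparison, with log2 fold changes of -0.15 to 0.19 and a mean of 860 ± 20.9 CPM in non-stroked WT mice. Sort1, a sorting receptor that binds the Bdnf precursor, fell by 0.37 ± 0.10 in WT (adjusted p = 0.0074) and by 0.56 ± 0.09 in delayed WT-Tacr mice. Igf1r fell by 0.40 in delayed WT-Tacr mice and was -0.33 in WT mice, where it was not called. Met, the Hgf receptor, fell by 0.55 in NSG, 0.60 in Rag2-/- and 0.65 in delayed WT-Tacr mice, and was -0.37 in WT mice (adjusted p = 0.065). Among the fibroblast growth factor receptors, Fgfr1 rose by 0.60 ± 0.17 in Rag2-/-, 0.69 ± 0.16 in NSG and 0.37 ± 0.14 in delayed WT-Tacr mice, and Fgfr3, which marks astrocytes, rose by 0.45 in WT and 0.48 in both WT-Tacr groups. Fgfr2 fell by 0.36 in acute WT-Tacr mice, and Fgfrl1 rose by 0.52 in NSG mice. Fgfr4 rose by 1.54 in WT and 1.78 in delayed WT-Tacr mice at levels of at most 0.734 CPM. Gfra1, the Gdnf co-receptor, and Pdgfrb rose by 0.55 and 0.35 and Ncam1 fell by 0.43 in delayed WT-Tacr mice. Pdgfra, a receptor that is also in the fibroblast list, Ret and Ngfr were called in no stroke comparison. Leaving out 1 sample at a time, a choice made after the values were seen, every such fit kept the call for 3 of the 4 receptors in WT (not Fgfr4), 8 of 10 in delayed WT-Tacr (not Fgfr1 and Pdgfrb), 2 of 4 in NSG (not Fgfr1 and Met), 1 of 3 in Rag2-/- (Csf1r) and 0 of 3 in acute WT-Tacr mice. Fgfr1 in NSG mice was 0.39 (adjusted p = 0.053) without replicate 2, the sample with the highest NSG Igf1.

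**Figure D4:**
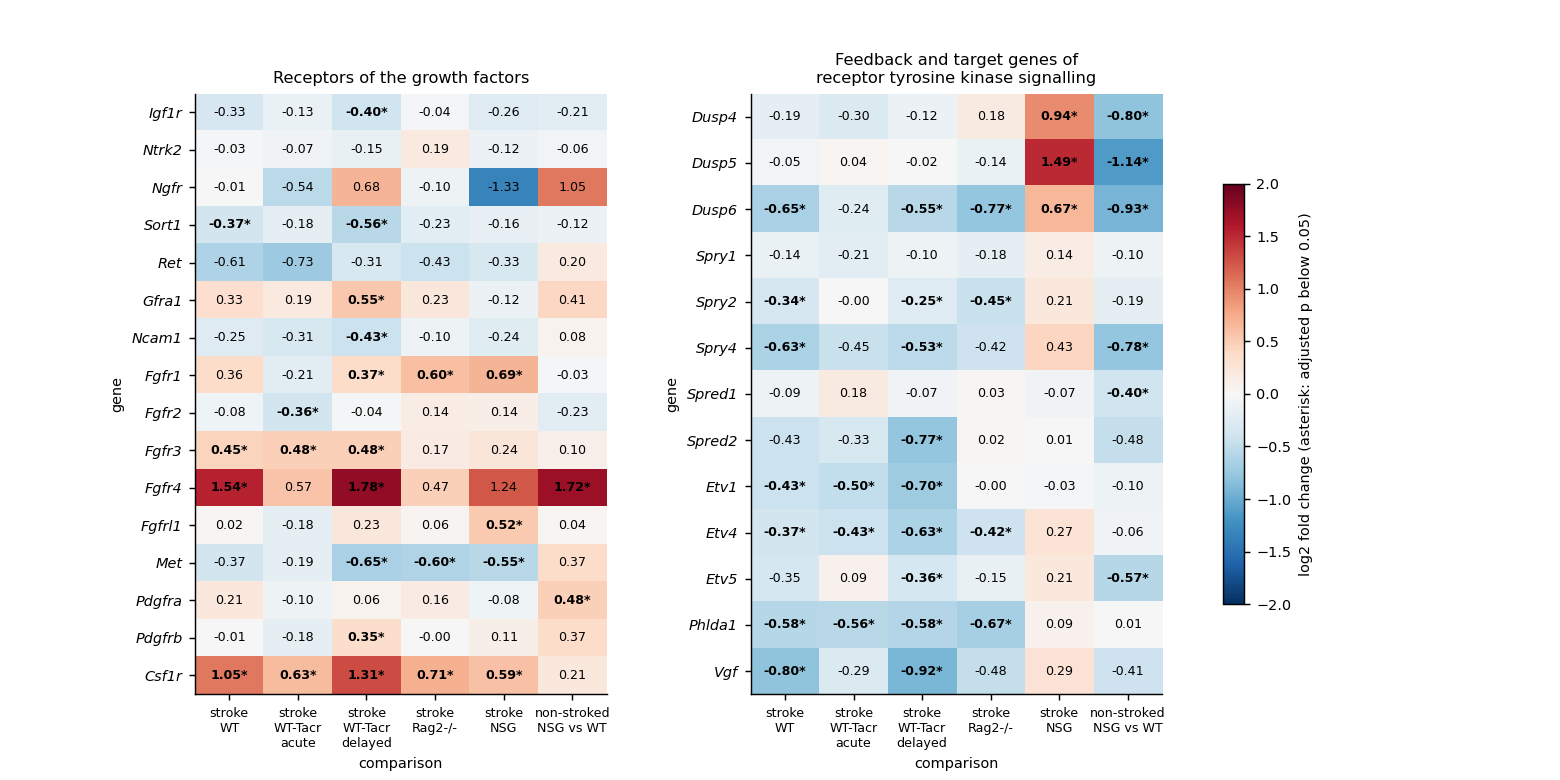
Log2 fold changes (colour and printed value, asterisk for adjusted p below 0.05) of 16 receptors (left) and 13 feedback and target genes of receptor tyrosine kinases (right) in the 5 stroke comparisons and in non-stroked NSG against WT mice. Csf1r carried an asterisk in each stroke column, and Dusp6 was negative after stroke in 4 groups and positive (0.67) in NSG mice.

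Of 20 listed genes whose products bind, activate or inhibit these growth factors, 18 were tested, and 7 rose in WT, 2 in acute WT-Tacr, 9 in delayed WT-Tacr mice, 3 in Rag2-/- mice, and 5 in NSG mice, where 2 others fell. The shares of all genes called higher were 15.2% in WT, 6.18% in acute WT-Tacr, 27.6% in delayed WT-Tacr, 13% in NSG and 6.71% in Rag2-/- mice. In NSG mice 8.89% of all genes were called lower. St14, the matriptase that can activate pro-Hgf, rose in all 5, by 2.49 ± 0.33 in WT mice (0.410 ± 0.0285 to 2.33 ± 0.259 CPM, n = 4 each, adjusted p = 2.6e-05), 1.59 in acute and 2.45 in delayed WT-Tacr mice, and by 2.17 in NSG and 2.73 in Rag2-/- mice. Spint1, an inhibitor of that activation, rose in WT (1.44), acute WT-Tacr (1.37) and delayed WT-Tacr (2.18) mice and was -0.14 in NSG mice. Igfbp5 and Igfbp3, binding proteins of Igf1, rose in the 4 groups in which Igf1 rose. Igfbp5 went from 268 ± 13.6 to 541 ± 29.9 CPM in WT mice (n = 4 each, 1.01 ± 0.26, adjusted p = 0.0054), rose by 1.16 in NSG, 1.21 in Rag2-/- and 1.19 in delayed WT-Tacr mice, and was 0.31 in acute WT-Tacr mice (adjusted p = 0.47). Igfbp3 rose by 0.96 in WT, 0.71 in NSG, 0.74 in Rag2-/- and 0.79 in delayed WT-Tacr mice, and Igfbp7 by 0.72 in WT, 1.18 in delayed WT-Tacr and 1.43 in NSG mice. In NSG mice Pappa2, a protease of these binding proteins, fell by 1.26 and Igf2r by 0.40. When 1 sample at a time was left out, 4 of the 7 calls in WT mice held in every fit (not Fgfbp1, Igfbp7 and Plat), as did 8 of 9 in delayed WT-Tacr (not Pappa), 2 of 7 in NSG (St14 and Igfbp7), 1 of 3 in Rag2-/- (St14) and 0 of 2 in acute WT-Tacr mice. Without NSG replicate 2, Igfbp5 was 0.61 (adjusted p = 0.077) and Igfbp3 0.28 (adjusted p = 0.25), and without NSG replicate 1, Pappa2 was -0.86 (adjusted p = 0.071) and Igf2r -0.17 (adjusted p = 0.33). Without acute replicate 3, St14 was 1.11 (adjusted p = 0.21) and Spint1 0.80 (adjusted p = 0.35).

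Of 24 other ligands of the same families, 18 were tested. The 3 called in WT mice (26.9% of all genes were), 2 in acute WT-Tacr (8.54%), 10 in delayed WT-Tacr (55.2%), 2 in NSG (21.9%) and 1 in Rag2-/- mice (8.23%) made up shares near or below those of all genes. In WT mice 2 rose and 1 fell: Pdgfd by 0.83 ± 0.25 (adjusted p = 0.018) and Pdgfc by 0.59 ± 0.15 (adjusted p = 0.0063) upward, and Fgf9, a factor of neurons, by 0.52 ± 0.15 (adjusted p = 0.013) downward. Pdgfd also rose in delayed WT-Tacr (1.23), Rag2-/- (1.13) and NSG mice (0.74), so that among the platelet-derived factors Pdgfd moved where Pdgfa and Pdgfb were not called. In acute WT-Tacr mice Ntf3 (neurotrophin 3) fell by 2.15 ± 0.45 and Il34, the other ligand of Csf1r, rose by 0.44 ± 0.13. In delayed WT-Tacr mice 5 rose, Igf2 (1.13) among them, and 5 fell, Ntf3 (1.07) among them. Of 12 other trophic factors, 4 rose and 1 fell in WT mice (15.2% and 11.6% of all genes), 7 rose and 1 fell in delayed WT-Tacr (27.6% each), 3 rose and 1 fell in Rag2-/- (6.71% and 1.53%), 4 rose and 1 fell in NSG (13% and 8.89%) and 1 rose in acute WT-Tacr mice (6.18%). Cntf, a survival factor made by astrocytes, rose by 1.70 ± 0.32 in WT (0.901 ± 0.156 to 2.96 ± 0.814 CPM, n = 4 each), 1.98 in delayed WT-Tacr mice, 1.78 in NSG and 1.77 in Rag2-/- mice. Grn (progranulin) rose by 1.18, 1.69, 1.004 and 0.91 and Mdk (midkine) by 0.78, 1.21, 1.06 and 0.90 in the same order, and Nrg1, which neurons release to glia, fell by 0.65, 0.59, 0.71 and 0.49. Psap was the gene of this list called in acute WT-Tacr mice (0.40 ± 0.12, adjusted p = 0.038). With 1 sample left out at a time, 2 of 3 other ligands kept their call in every fit in WT mice (not Pdgfd), 7 of 10 in delayed WT-Tacr mice and 0 in the other groups. Pdgfd was 0.59 (adjusted p = 0.15) without NSG replicate 2, and Ntf3 -1.98 (adjusted p = 0.12) without acute replicate 3. Of the other trophic factors, all 5 calls in NSG, 4 of 5 in WT (not Psap), 7 of 8 in delayed WT-Tacr (not Egf), 2 of 4 in Rag2-/- (not Grn and Nrg1) and 0 of 1 in acute WT-Tacr mice held in every fit.

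Genes that are induced by receptor tyrosine kinase signalling and in part restrain it, among them the MAP kinase phosphatase Dusp6, the Sprouty genes and the Etv factors, did not rise with Igf1, Fgf2 and Csf1 in WT mice. Of 13 tested, 7 fell in WT (11.6% of all genes), 3 in acute WT-Tacr (2.36%), 9 in delayed WT-Tacr (27.6%) and 4 in Rag2-/- mice (1.53%). With 1 sample left out at a time, 5 of these calls in WT (not Etv1 and Etv4), 7 in delayed WT-Tacr (not Etv5 and Spry2) and 0 in acute WT-Tacr or Rag2-/- mice held in every fit. In NSG mice 3 rose (13% of all genes), Dusp5 by 1.49 ± 0.28 (adjusted p = 0.00084), Dusp4 by 0.94 ± 0.27 (adjusted p = 0.016) and Dusp6 by 0.67 ± 0.19 (adjusted p = 0.012). The stroked NSG samples had 6.53 to 21.8 CPM of Dusp4, overlapping the non-stroked NSG range of 5.01 to 7.49 CPM. Without replicate 2, the sample at 21.8 CPM, Dusp4 was 0.26 (adjusted p = 0.43) and Dusp6 0.56 (adjusted p = 0.053), and Dusp5 was called in every fit that left out 1 sample. The median log2 fold change was -0.37 in WT and 0.21 in NSG mice. Dusp6 had 79.6 ± 15.3 CPM in non-stroked and 50.8 ± 5.77 CPM in stroked WT mice (n = 4 each, -0.65 ± 0.17, adjusted p = 0.0083), and 41.9 ± 9.13 (n = 4) and 66.7 ± 8.46 CPM (n = 3) in the NSG groups. Vgf, a neuronal gene induced by neurotrophins, fell by 0.80 ± 0.17 in WT and 0.92 ± 0.16 in delayed WT-Tacr mice. Phlda1 and Etv4 fell in WT, both WT-Tacr groups and Rag2-/- mice. Without stroke, 6 of 13 were lower in NSG than in WT mice (4.92% of all genes; 4 of the 6, not Dusp4 and Spred1, in every fit that left out 1 sample), Dusp5 by -1.14 ± 0.27 and Dusp6 by -0.93 ± 0.17 among them, as Bdnf was. No gene of this list passed the test of the difference between the NSG and WT responses. The part of neuron number in the values of this list was not tested, and kinase activity was not measured.

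By Pearson correlation of log2 CPM over the 29 samples, given as a description, the genes most like Igf1 were Cpxm2 (r = 0.9699), Fam114a1 (0.969) and Col1a1 (0.968), the last a gene of the fibroblast list. Those most like Csf1 were Mvp (0.963), Ggta1 (0.959) and Flnc (0.957), and those most like Fgf2 were Gpam (0.944), B430306N03Rik (0.925) and Mxra8 (0.916). Gdnf was most like Slc35d3 (0.916), Gng7 (0.912) and Six3 (0.906), and Bdnf most like Hsph1 (0.858), a heat shock protein, Mmd (0.810) and Ero1lb (0.806). Fgf1 was most like Kiz (0.865), Spg20 and Tbkbp1, Hgf most like Nup160 (0.914), Btbd7 and Anapc1, Pdgfa most like Bckdhb (0.841), H2afj and Rexo2, and Pdgfb most like Itga10 (0.786), Stk40 and Ifrd2. The samples share the groups and the stroke, which these values include.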

How the data were processed

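Raw read counts per gene, whole numbers without normalization, were deposited by the authors for 29 samples. The authors selected polyA RNA, made stranded libraries and left alignment and counting to a sequencing center. Aligner, genome build and use of strand are not given in the sources used here. The tissue of the non-stroked samples is described both as contralesional and as from naive mice. Groups came from the sample labels. Symbols and coordinates were taken from GENCODE M21 (GRCm38), where 25635 of 25746 IDs were found. Counts were tested with the quasi-likelihood test of edgeR 4.0.16 under R 4.3.3 (TMM, filterByExpr, 1 fit of 8 groups and 17031 genes) and adjusted by Benjamini-Hochberg over all genes in each comparison. Calls were an adjusted p below 0.05. CPM uses TMM-scaled totals, and log2 CPM a prior count of 2. The SE is the absolute log2 fold change divided by the square root of F. Error is given as SE for fold changes and SD for CPM.

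The samples are taken as separate mice, and p-values measure the spread between these samples. The growth factors, gene lists and tests were chosen with earlier results of these data known. Named in the text were all 9 growth factors, their receptors, up to 4 genes per direction with the smallest p from each of the related lists and stroke comparison, and the 3 genes most correlated with each growth factor. In simulated counts for stroke in WT mice (16685 genes), 27 of 67 genes changed 1.5-fold, 62 of 67 changed 2-fold and 66 of 66 changed 4-fold were recovered, with 11 false calls. The simulation gave every gene the same dispersion and held no differences by title prefix, sex or tissue. It therefore checks the code and does not give the power for single growth factors. Alternatives were RLE normalization, DESeq2 1.42.0, other filters, covariates (title prefix, Ddx3y), Imm2 samples alone, own groups alone, a minimum fold change, a replicate block and leaving out each sample. 1 gene of the striatal list is not reported here.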

Additional observations from a re-analysis of the deposited data

Results flagged for a closer look

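In 36 sets of 1 growth factor and 1 group of 4 or 5 samples, 3 held a sample set apart from the others by more than Dixon's 95% limit, which chance gives in about 1 of 20 sets. Bdnf was 14.4 CPM in 1 delayed WT-Tacr sample, the one with the highest Igf1 (56.8 CPM), against 18.2 to 19.6 CPM in the other 4. Pdgfb was 31.5 CPM in 1 non-stroked WT sample, above the other 3. Pdgfb was 24.4 CPM in 1 stroked WT sample, below the other 3. Pdgfb was not called in any comparison.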

How the results depend on the processing

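Of 1595 values of single growth factors under settings other than leaving out a sample, 1510 kept their direction and their side of the threshold, 69 lost the call, 15 gained it and 1 reversed, Fgf1 in delayed WT-Tacr mice (0.13 with the title prefix as covariate). The number of growth factors called after stroke was 4 in WT mice (1 with a minimum fold change of 2), 6 in delayed WT-Tacr (2 with the title prefix, 3 with the minimum fold) and 4 in NSG mice (0 with only the groups compared, 1 with the minimum fold, 2 with Ddx3y as covariate). In Rag2-/- mice it was 3, and 2 with the minimum fold or the choroid covariate and 4 with only the groups compared. With Ddx3y as covariate, calls were lost for Gdnf (1.62, adjusted p = 0.18) and Fgf1 (-0.12, adjusted p = 0.52) in delayed WT-Tacr, for Bdnf (0.26, adjusted p = 0.37) and Fgf2 (0.38, adjusted p = 0.24) in NSG mice, and for Fgf2 in delayed against acute WT-Tacr mice (0.53, adjusted p = 0.072). With the choroid covariate, an alternative chosen after seeing the data, they were lost for Igf1 in Rag2-/- (1.25, adjusted p = 0.079), for Gdnf (1.48, adjusted p = 0.082) and Fgf1 (-0.26, adjusted p = 0.054) in delayed WT-Tacr, for Fgf2 in non-stroked NSG against Rag2-/- mice (0.59, adjusted p = 0.23) and for Igf1 (1.02), Fgf2 (0.51) and Csf1 (0.57) in delayed against acute WT-Tacr mice (adjusted p 0.16 to 0.29). In non-stroked NSG against Rag2-/- mice it was 1, and 0 with RLE, no filter, a mean of at least 1 CPM, Imm2 samples alone, the minimum fold or choroid plexus genes as covariate, and 2 with only the groups compared. Non-stroked NSG against WT mice gave 1, and 3 with only the groups compared, 2 with Ddx3y and 0 with the minimum fold. Delayed against acute WT-Tacr gave 3, and 1 with the title prefix or the minimum fold and 0 with only the groups compared or the choroid covariate. Stroked NSG against WT gave 0, and 1 with the prefix or Ddx3y, and the NSG against WT response gave 0, and 1 with DESeq2 or Ddx3y. Leaving out the 13 samples above 100 CPM of choroid plexus genes, a choice made after seeing the data, leaves 16 samples. Some groups then hold 1 sample, assumed to vary like the others, and the stroked and non-stroked WT groups hold 2 each. Log2 fold changes in WT mice were then 1.30 for Igf1, 0.69 for Fgf2, 0.56 for Csf1 and -0.58 for Bdnf. Leaving out 1 sample gave 4 calls in WT, 0 to 1 in acute WT-Tacr, 4 to 6 in delayed WT-Tacr, 1 to 2 in Rag2-/- and 2 to 5 in NSG mice, 1 in non-stroked NSG against WT, 0 in NSG against Rag2-/-, 0 to 2 in stroked acute WT-Tacr and NSG against WT, 0 to 1 in delayed WT-Tacr against WT and in the NSG responses, and 0 to 3 in delayed against acute WT-Tacr. The replicate numbers of non-stroked mice do not pair samples (correlations of deviations -0.23 to 0.12), and a replicate block gave 1 call in NSG against WT, 0 in Rag2-/- against WT and 2 in NSG against Rag2-/- mice, as did the same samples without the block for the last (2) and 2 for the first. Beyond the minimum fold, the causes of these shifts were not tested.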
